A study of Mus musculus with 8 samples.

Results

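The genes described here encode matrix proteins other than collagens and markers of hepatic stellate cells. They are 42 genes of the 55385 in the deposited liver RNA-seq table, found by their symbols, and they span the contractile and identity markers of stellate cells, the receptors these cells carry, and the proteoglycans, elastic fibre proteins, cross-linking enzymes, matricellular proteins, adhesive glycoproteins and basement membrane proteins of the matrix. Liver RNA was compared between 4 *Usp39*-HKO mice and 4 control littermates, with 1 sequencing library per mouse. The *Usp39*-HKO mice were *Usp39* fl/fl animals carrying Albumin-Cre, a transgene active in hepatocytes and in the epithelial cells derived from the same progenitors, which removes the loxP-flanked exon 2 of *Usp39*, a spliceosome component. All 8 mice were males of 5 weeks on a C57BL/6J background and had been fasted for 16 h. The labels give the genotype of the controls as WT and do not say which floxed or Cre alleles they carried. Mice are numbered 1 to 4 within each group, and the numbers do not pair them.

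Hepatic stellate cells are pericytes that lie between hepatocytes and the sinusoidal endothelium and store retinoids as droplets of retinyl ester. During injury they can become contractile, matrix-producing myofibroblasts, a change marked by alpha smooth muscle actin. Much of the matrix of the liver comes from stellate cells and from fibroblasts around the portal tracts, whereas fibronectin, vitronectin and extracellular matrix protein 1 are also made by hepatocytes and secreted into blood or the space of Disse.

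Levels are the deposited FPKM, which are read counts divided by exon length and by the total of the library, and they can be compared between genes. Fold changes are *Usp39*-HKO over control on the log2 scale from edgeR's quasi-likelihood test on the counts, with the standard error (SE) and a Benjamini-Hochberg adjusted p over the 14340 genes tested. A gene was called higher or lower at an adjusted p under 0.05. In bulk liver RNA, a change in the number of cells of a type and a change in RNA per cell cannot be told apart. Libraries held between 8589636 and 10418450 counts, and 3 counts corresponded to 0.288 to 0.349 CPM (counts scaled to the library total). *Usp39* itself averaged 9.58 ± 0.706 FPKM in the control group against 8.44 ± 0.286 FPKM in the *Usp39*-HKO group (mean ± SD over 4 livers; log2 fold change -0.41, adjusted p = 0.0212), without overlap between the groups. One library stood apart, since the summed FPKM of 10 pancreas markers was 619 in control mouse 4 and between 0.405 and 2.55 in the other livers. Results that changed without control mouse 4 are given with the gene concerned.

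Most of these genes were higher in *Usp39*-HKO livers. Of the 38 members that were tested, 29 were higher, 1 (*Fn1*) was lower and 8 were not called, while over all genes tested 22.5% were called, 10.9% as higher and 11.6% as lower. *Tagln*, *Cspg4*, *Tnc* and *Vcan* stayed under the minimum of 0.5 FPKM in 4 livers and were not tested. The median log2 fold change of the 38 was 0.92, with a range from -0.59 to 2.42, whereas the median over all genes tested was -0.00148. Every *Usp39*-HKO liver was above every control in 28 of the 38, against 23.9% of all genes tested, and below every control in 1, against 4.81%. Here and below, overlap was judged on FPKM, without the TMM factors that scale libraries in the edgeR fit. These factors were 0.911 to 0.94 for control and 1.01 to 1.19 for *Usp39*-HKO libraries. They close small gaps above the controls, such as those of *Lrat*, *Rgs5* and *Eln*. *Fbln1* passed the minimum through the *Usp39*-HKO livers alone. *Lox* reached it in 2 controls and *Fbln2* and *Lama2* in 3, so these also needed *Usp39*-HKO livers to pass. The counts were repeated with another filter and without any. With a mean of at least 0.5 FPKM over the 8 livers, 38 members were tested and again 29 were higher and 1 was lower, against 10.9% and 11.7% of all genes. *Fbln1* and *Lama2*, at means of 0.417 and 0.494 FPKM in controls, passed this filter only through the *Usp39*-HKO livers. Without any filter all 42 were tested, of which 30 were higher and 1 was lower (6.41% and 6.75% of all genes), with a median of 0.89. Other scalings and tests gave similar member counts against different backgrounds. DESeq2 called 29 higher and 2 lower (11.9% and 12.4% of all genes), and edgeR with RLE factors called 29 and 1 (11.2% and 11.2%). With library totals alone 30 and 0 were called (24.6% and 4.85%), and with limma on log2(FPKM + 1) 30 and 1 (21.1% and 4.44%). At a mean of at least 5 FPKM, 17 members were tested, of which 14 were higher and 1 was lower (11.2% and 12.7%). *Pdgfra*, *Pdgfrb*, *Lrat*, *Reln*, *Cygb*, *Lum*, *Eln* and *Postn* averaged under 5 FPKM in controls and reached this mean only through the *Usp39*-HKO livers. This filter thus favoured members that were higher, and its count is not a separate check. Without control mouse 4, the library with pancreas transcripts, 24 were higher and 1 was lower, against 7.22% and 7.2% of all genes, and the median was 0.88.

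**Figure D1:**
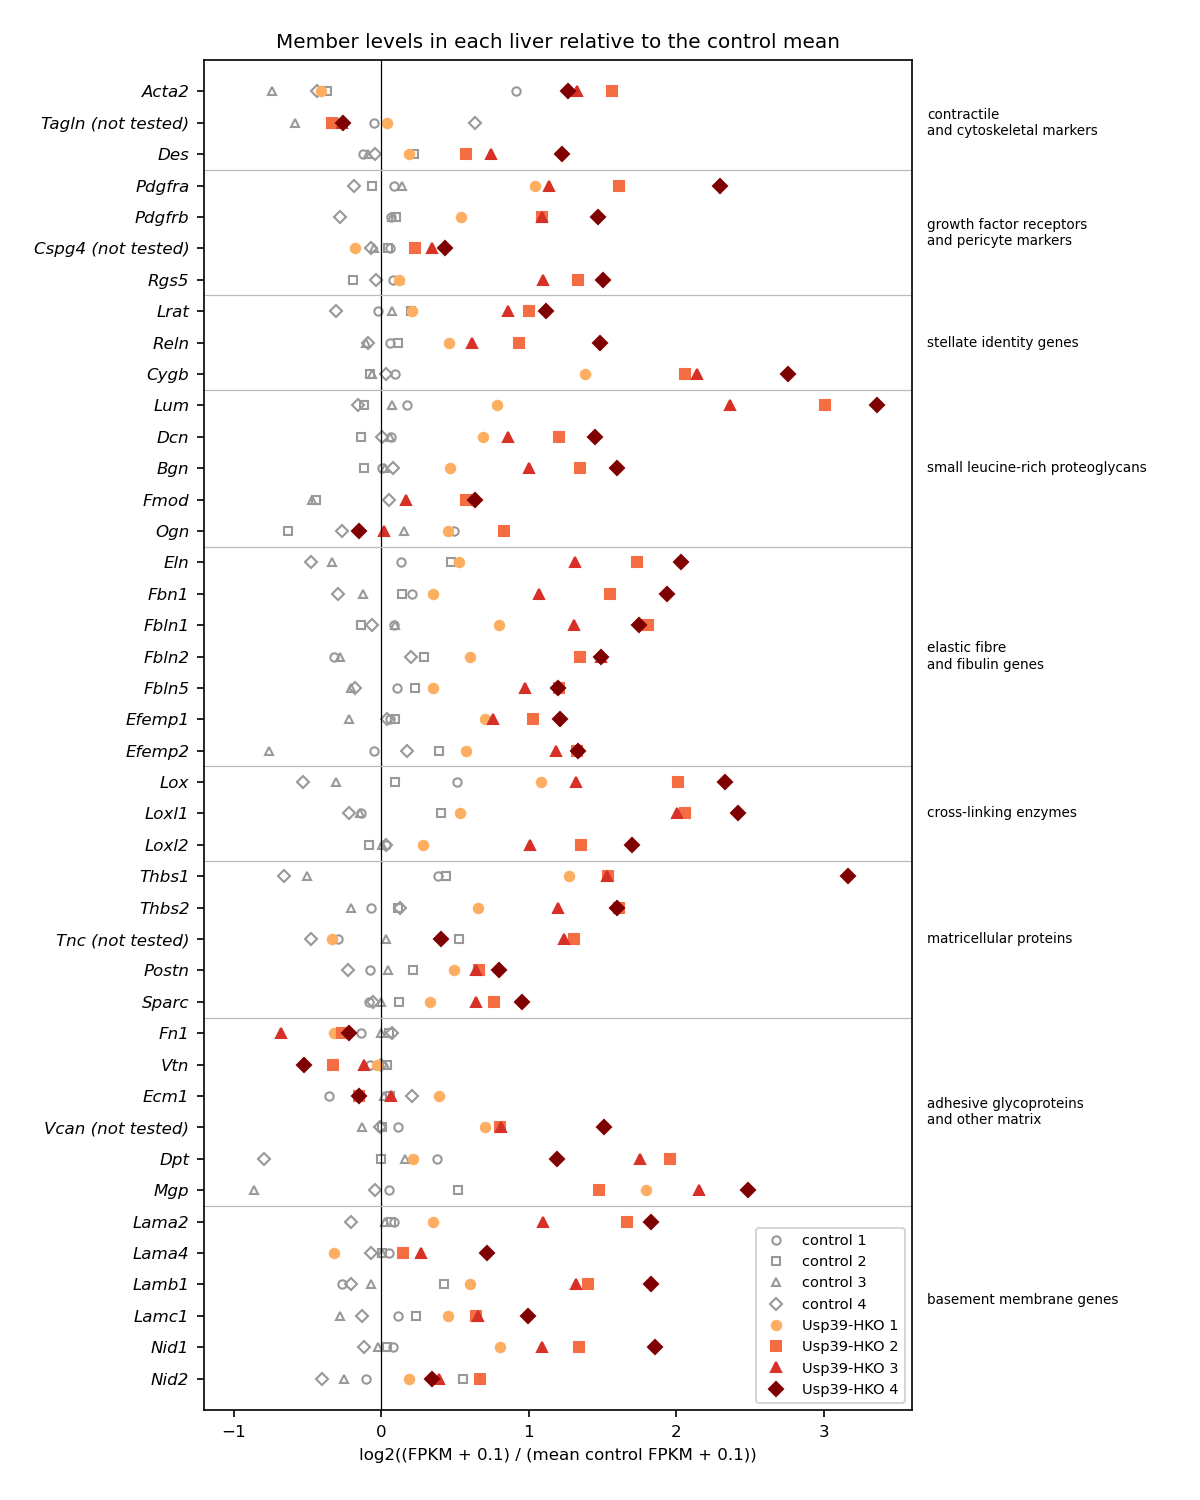
Level of each of the 42 genes in each liver as log2 of FPKM + 0.1 relative to the mean of the 4 controls, grouped by role (open grey symbols, controls; filled symbols, *Usp39*-HKO mice). Most filled symbols lie to the right of the open ones, the lightest filled circle (*Usp39*-HKO mouse 1) lies closest to the controls in most rows, and *Fn1* and *Vtn* lie to the left.

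The 4 *Usp39*-HKO livers were not alike. *Usp39*-HKO mouse 1 had the lowest level of its group in 32 of the 38 tested members, and mouse 4 had the highest in 28. The median difference from the control mean on the log2(FPKM + 1) scale was 0.36 in mouse 1, 0.96 in mouse 2, 0.77 in mouse 3 and 1.02 in mouse 4, against 0.11, 0.16, 0.15 and 0.28 over all genes tested. The controls lay between -0.07 and 0.07. In mouse 1, which had the smallest median difference of the group, 30 of the 38 members exceeded all 4 controls, as did 42.2% of all genes tested. Among the 29 genes called higher, mouse 1 was the lowest in 28 and mouse 4 the highest in 24. All these ranks are on FPKM without TMM factors, and the share of all genes with the same ranks was not counted. Over all genes tested, mouse 1 also had the smallest median difference and mouse 4 the largest, so this order is not particular to the members.

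The contractile and cytoskeletal markers did not pass the test, although *Acta2* and *Des* did in some alternatives. *Acta2*, alpha smooth muscle actin, is the classical marker of activated stellate cells and also of vascular smooth muscle (chr19:34241090-34255590, minus strand). It was at 2.38, 0.919, 0.689 and 0.874 FPKM in control mice 1 to 4 and at 0.89, 3.8, 3.2 and 3.07 FPKM in *Usp39*-HKO mice 1 to 4. In *Usp39*-HKO mice 2 to 4 it was thus above all controls, whereas *Usp39*-HKO mouse 1 lay among the low controls and control mouse 1 stood apart from the other controls. The log2 fold change was 0.92 (SE 0.45, adjusted p = 0.167). Without control mouse 1 it was 1.47 (adjusted p = 0.0402) and without *Usp39*-HKO mouse 1 it was 1.23 (adjusted p = 0.0297), so the call turned on either of these libraries.

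*Des*, the intermediate filament desmin found in quiescent stellate cells as well as in muscle, was at 1.33, 1.72, 1.36 and 1.41 FPKM in controls. It was at 1.67, 2.22, 2.51 and 3.54 FPKM in *Usp39*-HKO livers, of which mouse 1 lay below the highest control. Its log2 fold change was 0.52 (SE 0.20, adjusted p = 0.0901), which passed the threshold without *Usp39*-HKO mouse 1 (0.67, adjusted p = 0.0251). It was also called with library totals alone (0.77, adjusted p = 0.0273) and with limma (0.48, adjusted p = 0.0495). *Tagln*, the actin-binding protein transgelin, was near the limit of the data, with 4 to 14 counts in a library. Its levels were 0.383, 0.304, 0.234 and 0.676 FPKM in controls and 0.414, 0.296, 0.316 and 0.318 FPKM in *Usp39*-HKO livers, which overlapped throughout. Of the exon bases of *Tagln*, 67.9% overlap exons on the opposite strand (*Pcsk7* and *Gm48529*). As the strandedness of the counting was not given in the sources used here, its reads cannot be told apart from theirs.

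Around *Acta2*, the genes of the contractile apparatus moved in part. Of 15 partners of smooth muscle actin, 11 were tested, 4 were higher and none was lower, with a median log2 fold change of 0.50. Among the called genes, the largest rises were those of *Csrp1*, a cysteine- and glycine-rich LIM protein (1.12), *Flna*, the actin cross-linker filamin A (0.88), and the tropomyosin *Tpm4* (0.72). *Myh11*, *Cnn1*, *Actg2* and *Lmod1*, which mark differentiated smooth muscle, were under the minimum.

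The receptor tyrosine kinases for platelet-derived growth factor (PDGF) were higher, and the receptor and pericyte group had a median log2 fold change of 0.86 over 3 tested genes. *Pdgfra* (chr5:75152292-75198215), found on stellate cells and portal fibroblasts, was at 2.62, 2.35, 2.72 and 2.15 FPKM in controls and at 5.19, 7.74, 5.54 and 12.5 FPKM in *Usp39*-HKO livers. The groups did not overlap, and the log2 fold change was 1.39 (SE 0.22, adjusted p = 0.00177). *Pdgfrb*, the PDGF receptor of stellate cells and pericytes, was at 3.92, 4.01, 3.93 and 3.05 FPKM in controls and at 5.48, 8.04, 8.04 and 10.5 FPKM in *Usp39*-HKO livers. It rose by a log2 fold change of 0.86 (SE 0.16, adjusted p = 0.00394), again without overlap.

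Pericyte genes differed in level. *Rgs5*, a regulator of G protein signalling enriched in pericytes, was at 13.9, 11.5, 14.3 and 12.8 FPKM in controls and at 14.3, 33.3, 28.2 and 37.4 FPKM in *Usp39*-HKO livers. The lowest *Usp39*-HKO liver, mouse 1, was barely above the highest control, and the other 3 were all at least 28.2 FPKM (log2 fold change 0.86, SE 0.21, adjusted p = 0.0143). *Cspg4*, the pericyte proteoglycan NG2, had 0 to 6 counts in a library and gave no usable level. Among 19 genes of signals known to activate stellate cells, PDGF ligands included, 17 were tested, 13 were higher and 1 was lower, with a median of 0.90. Of the 13, *Edn1* and *Ltbp1*, at means of 0.523 and 0.39 FPKM in controls, passed the minimum mainly through the *Usp39*-HKO livers. The largest rises were those of *Ccn1*, a matricellular signalling protein (1.52), the ligand *Pdgfc* (1.35) and *Ltbp3*, which binds latent TGF-beta (1.31). *Tgfb1*, the main fibrogenic cytokine, rose by 0.53 (adjusted p = 0.0215), and the angiotensin receptor gene *Agtr1a* was lower (-0.48).

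The 3 stellate identity genes were called higher, by different amounts (median log2 fold change 0.69). *Cygb*, the globin cytoglobin that marks stellate cells (chr11:116645595-116654313, minus strand), was at 2.8, 2.47, 2.5 and 2.68 FPKM in controls, a narrow range. It was at 6.97, 11.2, 11.9 and 18.3 FPKM in *Usp39*-HKO livers, so that even the lowest of them was well above the controls. The log2 fold change was 1.95 (SE 0.22, adjusted p = 0.000494), the smallest adjusted p among the members. *Reln*, the secreted glycoprotein reelin, was at 5.07, 5.27, 4.53 and 4.56 FPKM in controls and at 6.74, 9.4, 7.49 and 13.8 FPKM in *Usp39*-HKO livers. It rose by 0.69 (SE 0.17, adjusted p = 0.0129), with mouse 4 the highest.

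*Lrat*, lecithin retinol acyltransferase, makes the retinyl esters that quiescent stellate cells store (chr3:82892579-82903973, minus strand). Its levels were 4.54, 5.3, 4.85 and 3.71 FPKM in controls and 5.33, 9.33, 8.42 and 10.1 FPKM in *Usp39*-HKO livers. The groups did not overlap in FPKM, but *Usp39*-HKO mouse 1 was level with the highest control and falls below it once TMM factors are applied. The log2 fold change was 0.60 (SE 0.17, adjusted p = 0.0253), and the call was lost without control mouse 1 (adjusted p = 0.0607), 3 (0.0541) or 4 (0.0792) and without *Usp39*-HKO mouse 2 (0.0585), 3 (0.0567) or 4 (0.0708).

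Other genes of retinoid handling mostly did not pass the test. Of 9 such genes, 7 were tested and 1 was called, with a median log2 fold change of -0.05. The called gene was *Dhrs3*, which reduces retinal to retinol and fell by 0.52. Of 13 other stellate markers, 12 were tested and 5 were called, each as higher, with a median of 0.24. The largest rises were those of *Adamtsl2*, a secreted binder of fibrillin (1.83), and the transcription factor genes *Tcf21* (1.18) and *Lhx2* (0.73). The summed FPKM of these 13 markers was between 79.3 and 101 in controls and between 118 and 126 in *Usp39*-HKO livers, with no overlap. These sums carry no TMM factors, and on that scale every *Usp39*-HKO liver was above every control for 23.9% of all genes. *Colec11*, a collectin, made the largest part of the sum, at a mean of 31.8 FPKM in controls and 42.4 FPKM in *Usp39*-HKO livers, and was not called (log2 fold change 0.18, adjusted p = 0.248).

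**Figure D2:**
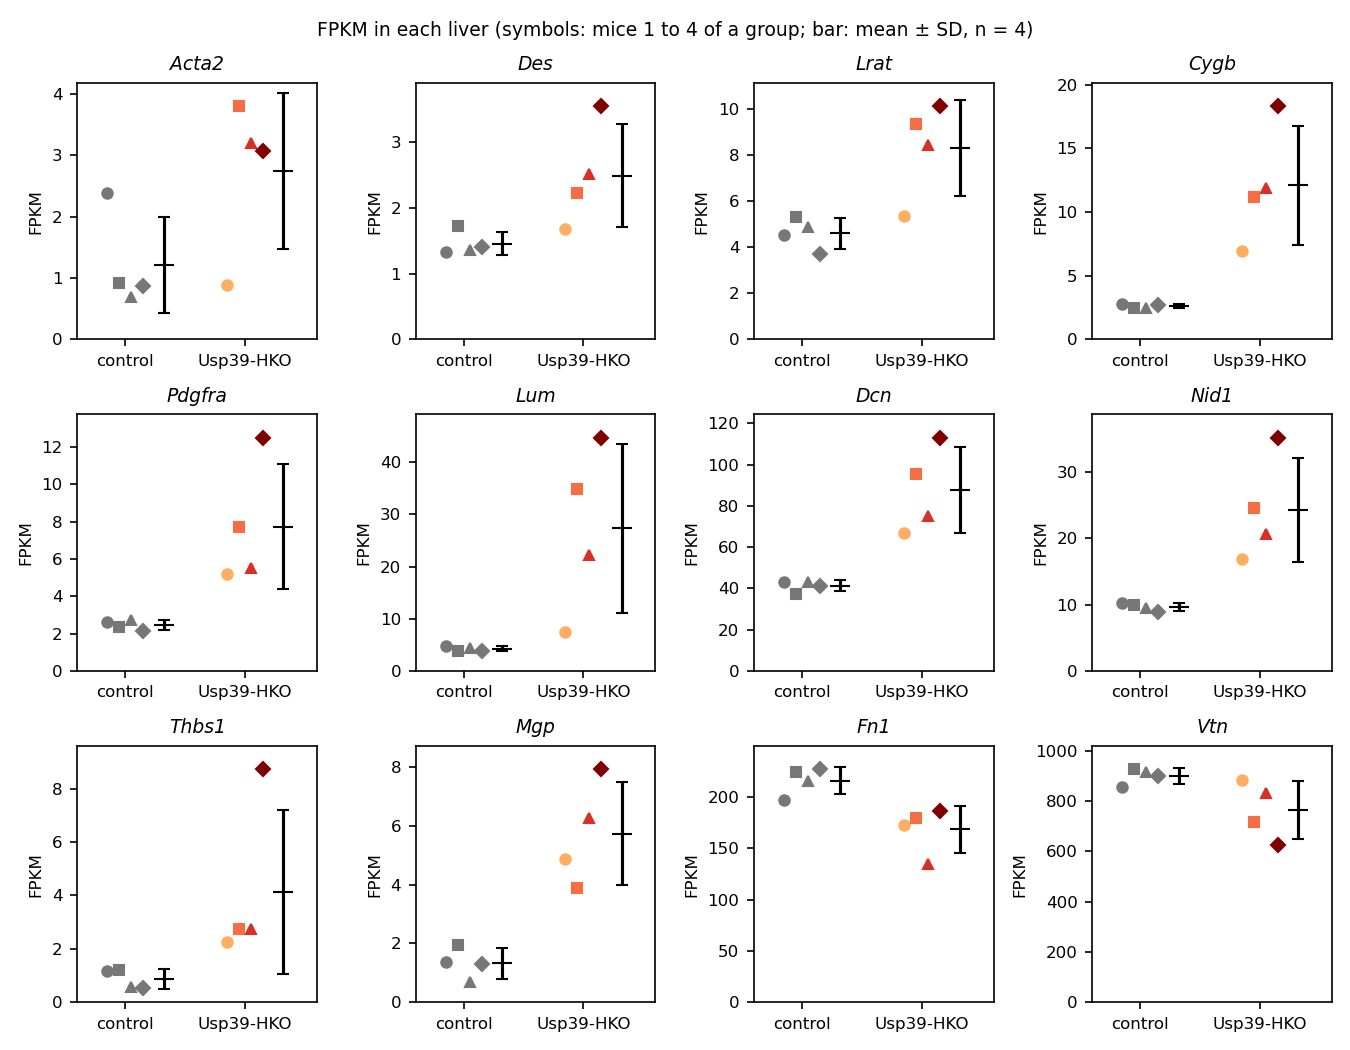
FPKM of 12 genes in each liver, with the mean and SD of each group (n = 4; the axis of each panel starts at 0). *Cygb*, *Pdgfra*, *Dcn* and *Nid1* are tight in controls and higher in all 4 *Usp39*-HKO livers, *Acta2*, *Des* and *Vtn* overlap, and *Fn1* is lower in *Usp39*-HKO livers.

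Among the small leucine-rich proteoglycans, which bind collagen fibrils and growth factors, 3 of 5 were higher and the median log2 fold change was 0.83. *Lum*, lumican, was at 4.81, 3.91, 4.47 and 3.8 FPKM in controls. In *Usp39*-HKO livers it was at 7.4, 34.9, 22.3 and 44.7 FPKM, so that mouse 1 was modestly above the controls and the other 3 several-fold above them. The log2 fold change of 2.42 (SE 0.39, adjusted p = 0.00228) was the largest of the 38. *Dcn*, decorin, the most abundant of these proteoglycans in the livers, was at 43.2, 37.5, 43.1 and 41.4 FPKM in controls and at 66.8, 95.3, 75.1 and 113 FPKM in *Usp39*-HKO livers. It rose by 0.83 (SE 0.14, adjusted p = 0.00224), with no overlap.

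*Bgn*, biglycan, was also higher. It was at 21.9, 20.1, 22.2 and 23.1 FPKM in controls and at 30.2, 55.8, 43.9 and 66.5 FPKM in *Usp39*-HKO livers (log2 fold change 0.91, SE 0.17, adjusted p = 0.00418). *Fmod*, fibromodulin, and *Ogn*, osteoglycin, were present at low levels of 0.59 to 1.8 FPKM in all livers, with log2 fold changes of 0.32 (SE 0.28, adjusted p = 0.451) and 0.16 (SE 0.34, adjusted p = 0.783). The sign for *Ogn* turned when control mouse 2 (-0.02) or *Usp39*-HKO mouse 2 (-0.06) was left out.

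*Lum* (chr10:97565128-97572703) and *Dcn* (chr10:97479609-97518143) lie on the plus strand of chromosome 10, 46985 bases apart, and are the only members within 1000000 bases of each other. Their ratio within a liver, as the log2 ratio of FPKM + 0.1, was -3.14, -3.23, -3.24 and -3.41 in controls and -3.16, -1.45, -1.74 and -1.33 in *Usp39*-HKO livers. *Usp39*-HKO mouse 1 thus kept the ratio of the controls, at raised levels of both genes, while in the other 3 lumican was higher relative to decorin. The difference of 1.34 had an exact permutation p of 0.057.

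All 7 elastic fibre and fibulin genes were called higher, with a median log2 fold change of 1.15. *Fbln1*, the matrix glycoprotein fibulin-1, was at 0.449, 0.37, 0.453 and 0.396 FPKM in controls and at 0.801, 1.71, 1.18 and 1.64 FPKM in *Usp39*-HKO livers (log2 fold change 1.43, SE 0.25, adjusted p = 0.00336). It was low in controls, at 16 to 18 counts in a library, and did not overlap. *Eln*, the elastic fibre core protein elastin, was at 3.17, 4.04, 2.27 and 2.04 FPKM in controls and at 4.19, 9.82, 7.33 and 12.1 FPKM in *Usp39*-HKO livers. *Usp39*-HKO mouse 1 was close to control mouse 2, and the log2 fold change was 1.28 (SE 0.28, adjusted p = 0.00837).

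*Fbln2*, fibulin-2, was at 0.496, 0.808, 0.512 and 0.753 FPKM in controls and at 1.03, 1.79, 1.99 and 1.99 FPKM in *Usp39*-HKO livers (log2 fold change 1.15, SE 0.23, adjusted p = 0.0061). *Fbn1*, the microfibril protein fibrillin-1, rose by the same amount (1.15, SE 0.26, adjusted p = 0.00981), and 20.1% of its exon bases overlap *Gm9913* on the other strand. The other 3 genes of this group organise elastic fibres: *Fbln5* (0.75), *Efemp1* (0.72) and *Efemp2* (0.96) stood between 0.522 and 3.57 FPKM in controls and between 1.47 and 7.87 FPKM in *Usp39*-HKO livers, with no overlap within a gene. *Efemp2* lost its call without control mouse 1 (adjusted p = 0.0541) or 3 (0.0507) or *Usp39*-HKO mouse 4 (0.0521).

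The cross-linking enzymes, amine oxidases that join elastin and collagen molecules, had the highest median log2 fold change of the groups, 1.67 over 3 genes. Their relatives *Loxl3* (0.59, adjusted p = 0.0909) and *Loxl4* (0.81, adjusted p = 0.0109) rose less. They were counted with the collagen folding and processing genes, so the ranking holds only for the grouping used here. *Lox*, lysyl oxidase, was at 0.935, 0.676, 0.487 and 0.402 FPKM in controls and at 1.44, 2.83, 1.71 and 3.55 FPKM in *Usp39*-HKO livers (log2 fold change 1.67, SE 0.31, adjusted p = 0.00419). *Loxl1*, its relative required for elastin deposition, was at 0.958, 1.44, 0.953 and 0.902 FPKM in controls and at 1.59, 4.76, 4.58 and 6.14 FPKM in *Usp39*-HKO livers. Control mouse 2 was above the other controls but below each *Usp39*-HKO liver, and the log2 fold change was 1.74 (SE 0.33, adjusted p = 0.00436). *Loxl2* was the most abundant of these enzymes in controls, at 2.06, 1.89, 2.02 and 2.06 FPKM, and was at 2.47, 5.3, 4.15 and 6.75 FPKM in *Usp39*-HKO livers (log2 fold change 0.96, SE 0.22, adjusted p = 0.00992).

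Collagens and the genes that fold and process them changed in both directions. Of 16 folding and processing genes, 13 were tested, 5 were higher and 1 was lower, with a median log2 fold change of 0.59. *Pcolce*, an enhancer of procollagen cleavage (0.98), and *Serpinh1*, the collagen chaperone (0.94), were higher, and *Bmp1*, the procollagen C-proteinase, was lower (-0.87). Of 17 collagen genes, 15 were tested, 10 were higher and 3 were lower, with a median of 0.67. The fibrillar *Col1a1* (1.70, adjusted p = 0.00333) and *Col3a1* (1.40, adjusted p = 0.00401) were higher, as were *Col6a3* (1.62) and *Col5a2* (1.44). The lower genes were *Col15a1* (-1.27) and *Col18a1* (-0.77), of basement membrane zones, and *Col5a3* (-0.70).

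All 4 matricellular genes tested, whose products modulate cell and matrix contacts, were called higher (median log2 fold change 0.79). *Thbs1*, thrombospondin-1, an activator of latent TGF-beta, was at 1.18, 1.23, 0.594 and 0.522 FPKM in controls and at 2.27, 2.75, 2.74 and 8.72 FPKM in *Usp39*-HKO livers. Mouse 4 stood apart from the other 3, which were all above the controls. The log2 fold change of 1.94 (SE 0.42, adjusted p = 0.00831) was 1.36 without *Usp39*-HKO mouse 4 (adjusted p = 0.0118). *Thbs2*, thrombospondin-2, was at 1.14, 1.31, 1.03 and 1.32 FPKM in controls and at 1.95, 3.88, 2.89 and 3.84 FPKM in *Usp39*-HKO livers (log2 fold change 1.14, SE 0.19, adjusted p = 0.00236).

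*Sparc*, osteonectin, a collagen-binding protein, was the most abundant matricellular transcript. It was at 57.2, 65.8, 60.3 and 58.3 FPKM in controls and at 75.9, 103, 94.4 and 117 FPKM in *Usp39*-HKO livers. The log2 fold change was 0.45 (SE 0.12, adjusted p = 0.0178), and the call was lost without control mouse 1 (adjusted p = 0.0538), 3 (0.0541) or 4 (0.0597). *Postn*, periostin, which promotes matrix assembly, had the smallest called rise of the members (0.43, SE 0.11, adjusted p = 0.018), from 4.74 ± 0.63 to 7.52 ± 0.654 FPKM (SD, n = 4 each). It lost its call without control mouse 1 (0.0529) or 4 (0.0578). *Tnc*, tenascin C, an injury-associated glycoprotein, had 7 to 43 counts in a library, at 0.0864 to 0.273 FPKM in controls and 0.106 to 0.543 FPKM in *Usp39*-HKO livers, which overlapped.

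The adhesive glycoproteins and other matrix genes held the lower member, and their median log2 fold change was -0.16 over 5 tested genes. *Fn1*, fibronectin, was at 197, 224, 216 and 227 FPKM in controls and at 173, 180, 135 and 186 FPKM in *Usp39*-HKO livers (chr1:71585520-71653200, minus strand). Each *Usp39*-HKO liver was below each control, and the log2 fold change was -0.59 (SE 0.14, adjusted p = 0.0108). With library totals alone, which shift the median of all genes to 0.237, it was -0.36 and was not called (adjusted p = 0.0524). *Vtn*, vitronectin, a plasma and matrix protein made by hepatocytes, was at 854, 926, 917 and 898 FPKM in controls and at 882, 716, 830 and 626 FPKM in *Usp39*-HKO livers. *Usp39*-HKO mouse 1 lay among the controls and the other 3 below them (log2 fold change -0.46, SE 0.16, adjusted p = 0.0594). It was called lower with DESeq2 (-0.45, adjusted p = 0.0146) and without *Usp39*-HKO mouse 1 (-0.54, adjusted p = 0.0227).

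*Ecm1*, extracellular matrix protein 1, was at 69.3 ± 11 FPKM in controls and 72.1 ± 13.5 FPKM in *Usp39*-HKO livers (SD, n = 4 each). Its log2 fold change of -0.16 (SE 0.17, adjusted p = 0.534) was 0.06 with library totals alone and 0.05 with limma, so it has no settled sign. *Fn1*, *Vtn* and *Ecm1* were the tested members with negative values.

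The other genes of this group rose. *Mgp*, matrix Gla protein, an inhibitor of calcification, was at 1.38, 1.95, 0.687 and 1.29 FPKM in controls and at 4.85, 3.88, 6.27 and 7.91 FPKM in *Usp39*-HKO livers (log2 fold change 1.84, SE 0.30, adjusted p = 0.00233). It was the 1 member called higher for which mouse 1 was not the lowest of the *Usp39*-HKO livers. *Dpt*, dermatopontin, which binds decorin and collagen, was at 3.16, 2.4, 2.7 and 1.34 FPKM in controls and at 2.81, 9.62, 8.33 and 5.63 FPKM in *Usp39*-HKO livers. It was the 1 called member whose groups overlapped in FPKM, which carry no TMM factors, through *Usp39*-HKO mouse 1 (log2 fold change 1.22, SE 0.36, adjusted p = 0.0316). Its call was lost without control mouse 2 (adjusted p = 0.0595), 3 (0.0646) or 4 (0.0903) and without *Usp39*-HKO mouse 2 (0.0815) or 3 (0.0805).

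*Vcan*, the large proteoglycan versican, was under the minimum in every liver. It had 5, 4, 2 and 4 counts in controls and 15, 18, 17 and 36 counts in *Usp39*-HKO livers, which did not overlap. In the fit without a filter over 28412 genes it was called higher (log2 fold change 2.18, SE 0.43, adjusted p = 0.000656), and *Tagln* (-0.52, adjusted p = 0.54), *Cspg4* (0.96, adjusted p = 0.517) and *Tnc* (0.87, adjusted p = 0.207) were not.

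Of the 6 basement membrane genes, 4 were higher and the median log2 fold change was 0.77. *Nid1*, nidogen-1, which links laminin to type IV collagen (chr13:13437551-13512269), was at 10.2, 9.88, 9.49 and 8.89 FPKM in controls and at 16.9, 24.5, 20.6 and 35.1 FPKM in *Usp39*-HKO livers. The groups were far apart relative to the spread of the controls (log2 fold change 1.08, SE 0.16, adjusted p = 0.00145). *Lama2*, the laminin alpha 2 chain, was at 0.531, 0.522, 0.505 and 0.416 FPKM in controls and at 0.657, 1.79, 1.17 and 2.01 FPKM in *Usp39*-HKO livers (log2 fold change 1.25, SE 0.27, adjusted p = 0.0074). *Lamb1*, the laminin beta 1 chain, was at 1.53, 2.53, 1.77 and 1.6 FPKM in controls and at 2.88, 5.08, 4.79 and 6.86 FPKM in *Usp39*-HKO livers (log2 fold change 1.15, SE 0.22, adjusted p = 0.00436).

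The remaining genes of this group changed less or were not called. *Lamc1*, the laminin gamma 1 chain, rose from 6.67 ± 1.09 to 10.9 ± 1.77 FPKM (SD, n = 4 each; log2 fold change 0.47, adjusted p = 0.0215). It lost its call without control mouse 3 (0.0713) or 4 (0.0723) or *Usp39*-HKO mouse 4 (0.0631). *Lama4*, the alpha 4 chain found in vessel walls, was at 1.04 ± 0.0398 FPKM in controls and 1.25 ± 0.399 FPKM in *Usp39*-HKO livers, of which mouse 1 was below and mice 2 to 4 above all controls. Its log2 fold change was 0.02 (SE 0.18, adjusted p = 0.953) and turned negative without control mouse 4 (-0.02), without *Usp39*-HKO mouse 4 (-0.13) and without a filter (-0.01). *Nid2*, nidogen-2, was at 2.97 ± 0.994 and 3.98 ± 0.587 FPKM (log2 fold change 0.19, SE 0.21, adjusted p = 0.557). Of 21 integrin, syndecan and other receptor genes through which cells bind such matrix, 18 were tested, 3 were higher and 2 were lower, with a median of 0.10. The called genes were the collagen receptor *Ddr1* (2.32), the hyaluronan receptor *Cd44* (0.74) and the integrin *Itga3* (0.69), and the syndecans *Sdc2* (-0.71) and *Sdc4* (-0.69).

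**Figure D3:**
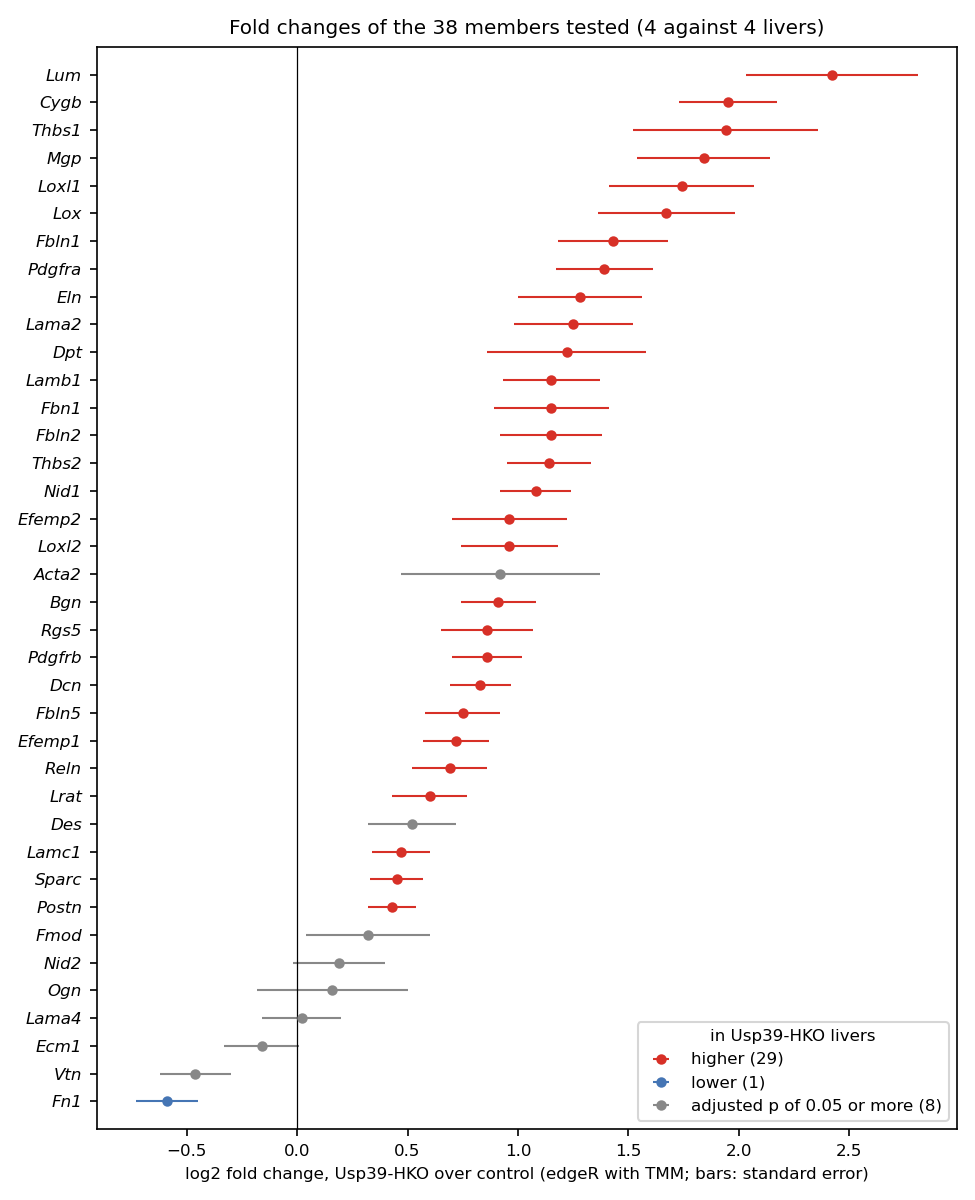
Log2 fold change of each tested gene, *Usp39*-HKO over control, from edgeR with TMM factors, with bars of 1 standard error (red, higher; blue, lower; grey, adjusted p of 0.05 or more). Values run from 2.42 for *Lum* to -0.59 for *Fn1*, the only gene called lower, and the 8 grey genes lie between -0.46 and 0.92.

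Ratios between related genes within the same liver do not depend on the scaling of libraries apart from the pseudocount, and 12 such pairs were compared. Groups did not overlap for 2 of them. The log2 ratio of *Lama4* over *Lama2* was 0.91, 0.88, 0.92 and 1.07 in controls and 0.27, -0.58, 0.11 and -0.17 in *Usp39*-HKO livers, a mean of 0.94 ± 0.09 against -0.09 ± 0.37 (SD). The ratio of *Nid1* over *Nid2* was 1.85, 1.14, 1.9 and 1.95 in controls and 2.28, 2.33, 2.36 and 3.17 in *Usp39*-HKO livers, 1.71 ± 0.38 against 2.53 ± 0.43. For both, the exact permutation p was 0.029, the smallest that 4 against 4 livers can give, and after adjustment over the 12 pairs it was 0.147, so none of the pairs passed.

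In the other 10 pairs the groups overlapped. The log2 ratio was higher in *Usp39*-HKO livers by 0.61 for *Lamb1* over *Lamc1*, 0.47 for *Pdgfra* over *Pdgfrb* and 0.68 for *Thbs1* over *Thbs2*, and lower by -0.65 for *Loxl2* over *Lox* and -0.82 for *Tagln* over *Des* (exact permutation p between 0.057 and 0.171). *Bgn* over *Dcn* differed least, with -0.91 ± 0.06 in controls and -0.86 ± 0.19 in *Usp39*-HKO livers (exact permutation p = 0.6). The ratio of *Acta2*, the activation marker, over *Lrat*, the retinoid storage gene, averaged -1.98 ± 0.77 among the controls against -1.69 ± 0.53 among the *Usp39*-HKO livers (mean ± SD, exact permutation p = 0.571).

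**Figure D4:**
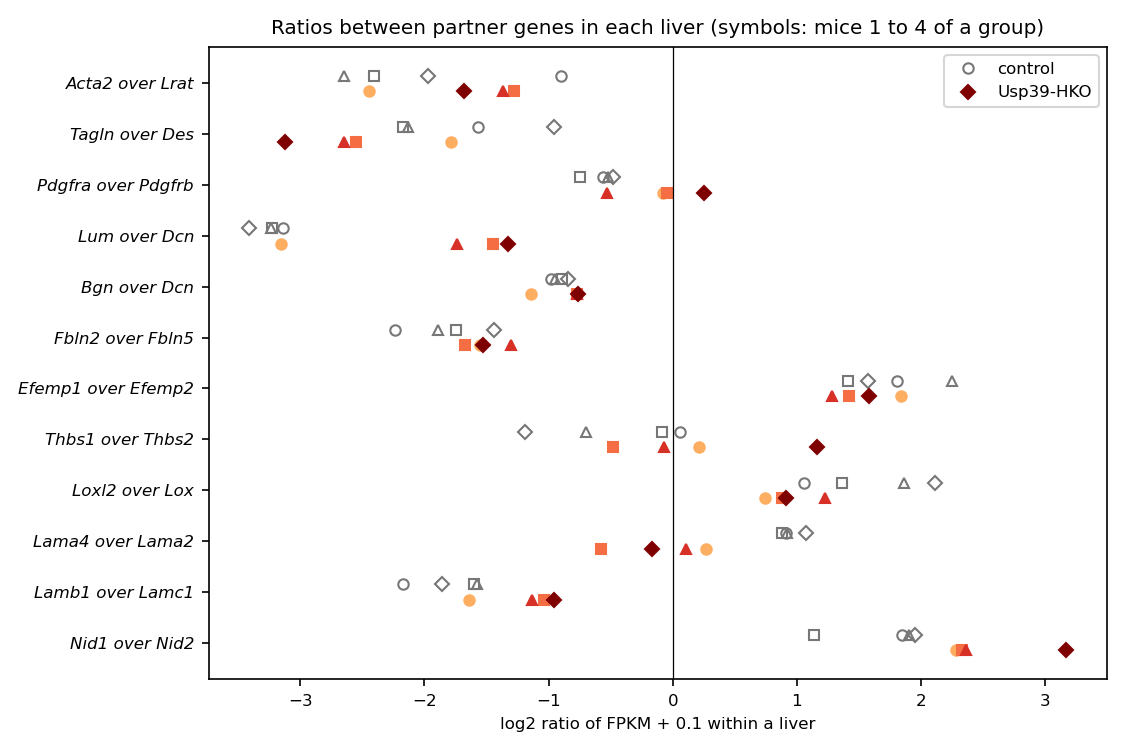
Log2 ratio of FPKM + 0.1 between 2 related genes in each liver, for 12 pairs (open symbols, controls; filled symbols, *Usp39*-HKO mice). The groups separate for *Lama4* over *Lama2* and *Nid1* over *Nid2*, and for *Lum* over *Dcn* the lightest circle, *Usp39*-HKO mouse 1 at -3.16, lies among the controls.

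Promoter sequence was read from RefSeq (GRCm38.p6) as the 250 bases before each start, which was found for 27 of the 42 genes, and searched on both strands for motifs of factors that act in mesenchymal cells. The CArG box of serum response factor was present in 1 of the 27 (*Lama2*) and in 1.47% of 32851 promoters. A looser CArG-like box, in which at least 5 of the 6 bases between CC and GG are A or T, was added after the values were seen. It was present in 4 of the 27 (*Lrat*, *Fbln2*, *Lama2* and *Acta2*, the last with 2 copies 84 and 34 bases before the start) and in 8.59% of promoters. Of the 27 windows, 17 hold no base annotated as exon, whereas 217 bases of the *Acta2* window and all 250 of the *Fbln2* window are so annotated. The AP-1 site TGANTCA was in 2 of the 27 and 6.75% of promoters, the TEAD site GGAATG in 5 of the 27 and 12.6%, and the TATA box TATAAA in 5 of the 27 and 12.4%. CArG-like boxes include each CArG box, and a match describes the letters in these windows only. The 2 windows below are shown because *Lrat* is the retinoid storage gene and *Lama2* the member with a CArG box, and neither window contains a base annotated as exon. Capitals mark, in *Lrat* (chr3:82903975-82904224, minus strand), a CArG-like box 223 bases and a TEAD site on the opposite strand 208 bases before the start, and in *Lama2* (chr10:27616943-27617192, minus strand) the CArG box 39 bases before the start. Both genes were called higher, by 0.60 and 1.25.
Lrat: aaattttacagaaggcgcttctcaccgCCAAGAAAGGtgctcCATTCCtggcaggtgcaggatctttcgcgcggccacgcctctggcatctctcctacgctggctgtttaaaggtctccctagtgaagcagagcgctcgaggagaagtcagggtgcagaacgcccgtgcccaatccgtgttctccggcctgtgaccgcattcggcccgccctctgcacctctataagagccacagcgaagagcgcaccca
Lama2: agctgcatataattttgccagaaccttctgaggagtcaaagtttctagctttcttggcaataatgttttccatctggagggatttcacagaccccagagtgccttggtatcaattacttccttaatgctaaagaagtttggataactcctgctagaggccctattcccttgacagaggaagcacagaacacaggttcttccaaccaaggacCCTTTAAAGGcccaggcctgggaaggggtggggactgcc

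Markers of other liver cell types moved with these genes in part. Their sums also carry no TMM factors, and on that scale every *Usp39*-HKO liver was above every control for 23.9% of all genes. Summed over 7 cholangiocyte markers, the level was between 34.8 and 37.2 FPKM in controls and between 74.6 and 301 FPKM in *Usp39*-HKO livers, lowest in mouse 1 and highest in mouse 4. *Spp1* made most of this sum, at 23.2 to 25 FPKM in controls and 59.8 to 263 FPKM in *Usp39*-HKO livers. Of the 6 markers tested, 5 were higher (median log2 fold change 1.91), led by *Spp1* (2.32), *Epcam* (2.11) and *Cldn7* (2.06). *Cldn7*, at a mean of 0.451 FPKM in controls, passed the minimum mainly through the *Usp39*-HKO livers. Summed over 8 macrophage markers the level was between 248 and 335 FPKM in controls and between 427 and 699 FPKM in *Usp39*-HKO livers, again highest in mouse 4, and 6 of the 8 were higher with a median of 0.60 (*Marco* 1.25, *Cd68* 0.86, *Lyz2* 0.76). Macrophages and cholangiocytes also express some matrix genes, and their part in the member results was not tested.

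Markers of other mesenchymal cells were at low levels. Of 7 portal fibroblast markers 3 were tested and 1 was higher (*Mfap4*, 1.16), with a sum of 3.24 to 4.77 FPKM in controls and 7.48 to 10.5 FPKM in *Usp39*-HKO livers. Of 7 vascular smooth muscle markers 1, *Smtn*, was tested and not called (log2 fold change 0.64, adjusted p = 0.0685). The sum of the 7 was 1.8 to 2.89 FPKM in controls and 3.37 to 4.7 FPKM in *Usp39*-HKO livers. *Smtn* made most of it, at 1.2 to 2.03 FPKM in controls and 2.15 to 3.85 FPKM in *Usp39*-HKO livers. Of 7 mesothelial markers, 4 were tested and 1, the keratin gene *Krt19*, which is also on the cholangiocyte list, was higher (3.19 to 5.19 and 5.2 to 9.81 FPKM). The highest level of any marker in any liver was 4.03 FPKM on the portal fibroblast list, 3.85 FPKM on the smooth muscle list and 4.72 FPKM on the mesothelial list, and none of these markers was at 0 in every liver.

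The sums of endothelial and of hepatocyte markers overlapped between the groups. The sum of 9 endothelial markers was 130 to 148 FPKM in controls and 135 to 142 FPKM in *Usp39*-HKO livers, and 2 of the 9 (median of the list -0.16), *Lyve1* (-1.0) and *Stab2* (-0.37), both of sinusoidal endothelium, were lower. Of 7 lymphocyte markers 6 were tested and 1, *Ptprc*, was higher (0.53), with a median of 0.09 for the list. Their sum was 6.63 to 7.4 FPKM in controls and 7.86 to 10.6 FPKM in *Usp39*-HKO livers, without overlap on this scale without TMM factors. The 10 hepatocyte markers summed to 18815 to 21619 FPKM in controls and 17228 to 22104 FPKM in *Usp39*-HKO livers, and 3 of them, *Cyp2e1* (-0.70), *Serpina1a* (-0.54) and *Cps1* (-0.48), were lower.

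**Figure D5:**
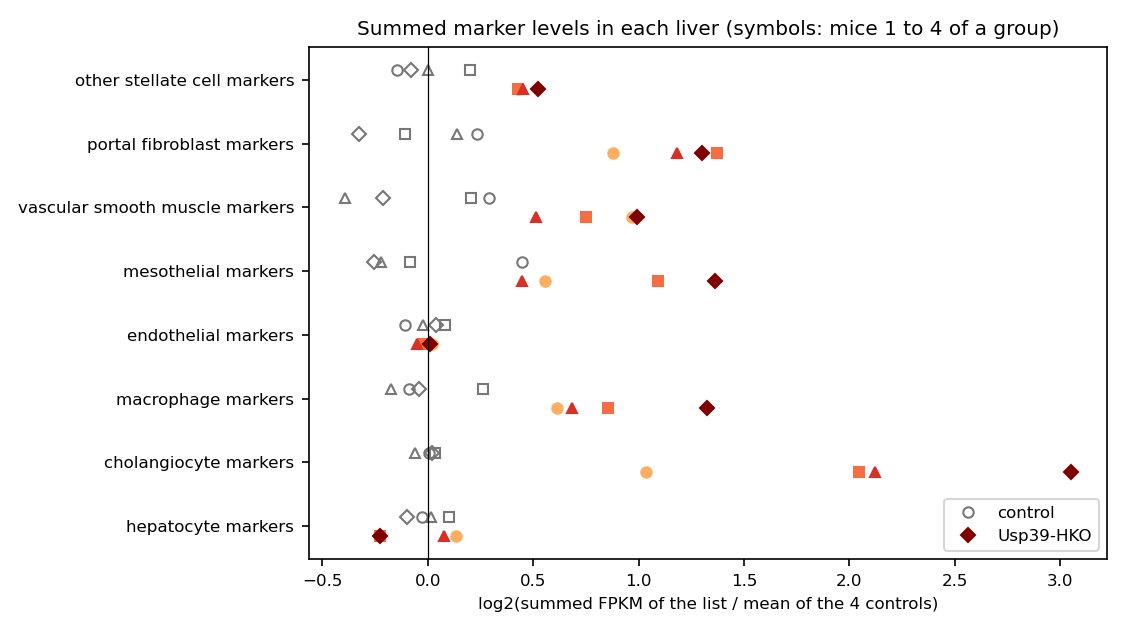
Summed FPKM of each marker list in each liver as log2 of its ratio to the mean of the 4 controls (open symbols, controls; filled symbols, *Usp39*-HKO mice). Cholangiocyte, macrophage, portal fibroblast, vascular smooth muscle and other stellate cell markers lie to the right of all controls in every *Usp39*-HKO liver, the mesothelial groups meet at 5.19 and 5.2 FPKM, and endothelial and hepatocyte markers overlap. *Spp1* makes most of the cholangiocyte sum. The sums carry no TMM factors, and on that scale 23.9% of all genes tested lie to the right in this way.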

How the data were processed

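Liver RNA of 8 mice was sequenced. Per the labels and the methods, the authors trimmed reads with Trim Galore 0.6.1, checked them with FastQC 0.11.9, aligned them to mm10 with HISAT2 and counted them with featureCounts. The methods give the Trim Galore and FastQC versions in the passage on RNA immunoprecipitation, not in that on liver RNA. The annotation release, strandedness and the treatment of reads with several matches were not given in the sources used here. The authors deposited raw counts per gene and mouse, the exon length of each gene (other than a measurement), and FPKM computed from counts, length and library total, which recomputation returned within a relative difference of 1.96e-07. Further columns that the authors deposited come from their own DESeq2 test (a normalized signal averaged over mice, a log2 fold change, its error and statistic as scores, and p-values before and after adjustment), and none was used. The 314 repeated entries of the table held equal values and were read once.

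Genes with at least 0.5 FPKM in at least 4 livers were tested with edgeR 4.0.16 in R 4.3.3 (quasi-likelihood, genotype only). TMM factors were between 0.911 and 0.94 for control libraries and between 1.01 and 1.19 for *Usp39*-HKO libraries, so fitted folds lie below ratios of mean FPKM. Rises are thus smaller in the fit, and falls are larger, as for *Fn1* (ratio of mean FPKM 0.78, fitted fold 0.66). Biological variation was 0.179 as a common coefficient. Each SE was derived as the size of the fold change over the root of F. The test was tested on simulated data. DESeq2 1.42.0 and limma 3.58.1 on log2(FPKM + 1) were alternatives, as were RLE factors, library totals alone, other filters and leaving out each liver. Ratios used exact two-sided permutation tests over the 70 assignments (scipy 1.17.1). As the labels do not say more of the mice than genotype, tissue and sex, no batch could be tested.

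The members and the gene lists were chosen with earlier results of these data known. Values in every liver are given for *Acta2*, *Tagln*, *Des*, *Pdgfrb*, *Lrat*, *Lum*, *Dcn*, *Fn1* and *Vtn* and for up to 3 called members of each role with the largest change, and up to 3 called genes are named from each of the 16 lists, besides *Col1a1*, *Col3a1* and *Tgfb1*. The lower collagens, *Agtr1a*, *Colec11*, *Edn1*, *Ltbp1*, *Loxl3*, *Loxl4*, counts of *Vcan* and the unfiltered values of the 4 genes under the minimum were added after values were seen. Gene positions and exon overlaps are from GENCODE vM21 on GRCm38, the assembly that mm10 names. The floor of 3 counts covers counting error only, since PCR reads without molecular identifiers are not independent molecules. One gene of the lists of retinoid handling genes and other stellate markers is not reported here, and the counts and sums of these lists leave it out.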

Additional observations from a re-analysis of the deposited data

Results flagged for a closer look

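In groups of 4 livers, a sample was looked at again when its gap to the nearest other liver, divided by the range of the group, exceeded Dixon's critical value for groups of 4, which chance alone does in about 1 of 20 groups. Among the members, 6 of 84 groups met this, and among the summed marker lists 1 of 32.

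In controls, *Acta2* was 2.38 FPKM in mouse 1 against 0.689 to 0.919 in the others, *Loxl1* was 1.44 FPKM in mouse 2 against 0.902 to 0.958, and *Pdgfrb* was 3.05 FPKM in mouse 4 against 3.92 to 4.01. In *Usp39*-HKO livers, *Thbs1* was 8.72 FPKM in mouse 4 against 2.27 to 2.75, *Vcan* was 0.263 FPKM in mouse 4 against 0.107 to 0.123, and *Fmod* was 0.983 FPKM in mouse 3 against 1.34 to 1.4. The sum of the pancreas markers was 619 FPKM in control mouse 4 against 0.405 to 0.753 in the other controls. Of the 29 members called higher, *Lrat*, *Postn*, *Sparc*, *Dpt* and *Lamc1* lost the call without control mouse 4.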

How the results depend on the processing

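Of the 30 called members, 23 kept the call in every alternative that gave a value. *Fbln1*, among the 23, had a value in 10 of 15 alternatives. It fell under the minimum whenever a *Usp39*-HKO liver was left out and was under a mean of 5 FPKM. The count of members higher was 24 to 30 with each liver left out, 29 with DESeq2 and with RLE factors, 30 with library totals alone and with limma (*Des* added to both), and 14 of 17 at a mean of at least 5 FPKM, where fewer genes were tested. Several of these 14 reached that mean only through the *Usp39*-HKO livers. The count lower was 1 to 2 with each liver left out, 2 with DESeq2 (*Vtn* added) and 0 with library totals alone (*Fn1* lost, adjusted p = 0.0524; 1 lower with limma). The member median was 0.79 to 1.09 with each liver left out, 1.17 with library totals alone and 0.78 with limma, against 0.237 and 0.172 over all genes. All genes higher and lower numbered 3525 and 696 with library totals alone, 3031 and 637 with limma, 750 and 845 at a mean of at least 5 FPKM, and 920 to 1713 and 935 to 1665 with each liver left out. Both scalings without TMM factors moved calls toward higher, since these factors were larger for *Usp39*-HKO libraries (1.01 to 1.19) than for controls (0.911 to 0.94). Why the factors differed between the groups was not tested. Signs turned for *Ecm1* (0.06 with library totals alone, 0.05 with limma), *Lama4* (-0.01 without a filter, -0.02 without control mouse 4, -0.13 without *Usp39*-HKO mouse 4; -0.13 to 0.18 with each liver left out) and *Ogn* (-0.02 without control mouse 2, -0.06 without *Usp39*-HKO mouse 2; -0.06 to 0.40), none of them called. With a pseudocount of 1 FPKM in place of 0.1, the differences of *Fbln2* over *Fbln5* and of *Efemp1* over *Efemp2* turned to -0.05 and 0.06. Without 1 liver, the exact p of each ratio was 0.057 or more, and 0.057 is the smallest that 4 against 3 livers can give. No paired analysis was possible because the labels give each mouse its own identifier and the groups share no replicate numbers. Depth limits *Tagln*, *Cspg4*, *Tnc* and *Vcan*, at 0 to 43 counts in a library.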
